A study of Mus musculus with 16 samples.

Results

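Mouse prostate organoids that carried a SPOP mutation and were treated with dihydrotestosterone (DHT) were compared with organoids that had neither, and each difference in open chromatin was split by what the mutation or DHT did on its own. Overlapping peaks (1 bp or more) of the 4 SPOPmut_DHT and the 4 Control_EtOH lists formed 81951 regions, of which the 75438 called in at least 2 of these 8 libraries were tested. A region was counted as gained when all 4 SPOPmut_DHT libraries and no Control_EtOH library had a peak in it, and as lost in the opposite case. By this rule 11984 of the 75438 regions were gained or lost, while the whole series held 80352 regions called in at least 2 of its 16 libraries.

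The study mapped accessible chromatin by ATAC-seq, which reads open DNA from where a transposase can insert adapters, in 16 libraries of cultured murine prostate organoids. SPOPmut_DHT was SPOP mutant and received 10 nM DHT, SPOPmut_EtOH was SPOP mutant and received EtOH, the solvent, Control_DHT was control and received 10 nM DHT, and Control_EtOH was control and received EtOH, with 4 libraries each. All 4 groups were labelled sgNT, were kept in mouse organoid media lacking mEGF during treatment, and were treated for 24 h. The labels do not name the mutant allele, how it was introduced, the number of mice or lines behind the organoids, or whether libraries sharing a group stem from separate cultures, so each p-value measures only the spread between these libraries.

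SPOP is the substrate adaptor of a cullin 3 ubiquitin ligase and selects proteins for ubiquitination. It is recurrently mutated in prostate cancer, where mutations fall in the domain that binds substrates, and its reported substrates include the coactivator Ncoa3 and the chromatin reader Trim24. DHT is a potent natural androgen. Androgens act through the androgen receptor, which binds at steroid response elements, where chromatin is opened with pioneer factors such as Foxa1.

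Each library was represented by the authors' list of peaks. The lists held 61791, 58800, 66532 and 69644 peaks in SPOPmut_DHT libraries and 64258, 57245, 64521 and 63184 peaks in Control_EtOH libraries, which did not differ beyond the spread between libraries (exact permutation test, two-sided, p = 0.543). They held 60661 to 67005 peaks in SPOPmut_EtOH libraries and 58038 to 63916 in Control_DHT libraries. A peak is a call and not a count, the read depth behind it is unknown, and a missing call means that the caller's threshold was not reached, not that the site was closed. The tissue is a mixed culture, so fewer cells of a type and less accessibility per cell cannot be told apart. A list of peaks cannot show the SPOP mutation itself. At Spop, 7 regions were called in each SPOPmut_DHT library, 6 in each SPOPmut_EtOH library, 7, 6, 7 and 6 in Control_DHT libraries and 6 in each Control_EtOH library, and the DHT label can be read against the steroid-induced genes described later.

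Promoter windows that carried gained or lost regions are shown first, because they tie a region to the start of 1 gene. Each window runs from 250 bases before to 50 bases after a RefSeq gene start (GRCm38.p6, the assembly behind mm10) and is printed 5′ to 3′ on the strand of the gene. Windows were chosen as the one over the strongest region of its class, or as a window of a gene from the named genes or gene lists. Capitals mark TGACTCA or TGAGTCA, the AP-1 site read on both strands, TGTTCT or AGAACA, the steroid receptor hexamer on both strands, and TGTTTAC or GTAAACA, a forkhead site on both strands. The first pair of windows was classed as gained with the SPOP mutation alone. Plac8 lies on the minus strand at chr5:100572156-100572455 and Krt7 on the plus strand at chr15:101412153-101412452.
Plac8: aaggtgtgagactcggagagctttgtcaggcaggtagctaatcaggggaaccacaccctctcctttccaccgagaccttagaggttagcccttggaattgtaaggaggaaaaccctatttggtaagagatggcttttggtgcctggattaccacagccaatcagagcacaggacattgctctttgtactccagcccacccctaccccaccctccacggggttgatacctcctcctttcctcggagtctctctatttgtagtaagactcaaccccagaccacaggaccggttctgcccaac
Krt7: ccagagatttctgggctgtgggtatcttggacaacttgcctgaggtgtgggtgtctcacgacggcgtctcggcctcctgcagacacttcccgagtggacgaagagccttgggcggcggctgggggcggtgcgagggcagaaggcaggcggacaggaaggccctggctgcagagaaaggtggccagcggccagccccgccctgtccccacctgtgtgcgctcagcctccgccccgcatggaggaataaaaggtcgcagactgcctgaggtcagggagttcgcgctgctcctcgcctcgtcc
The window of Csad, which encodes a taurine synthesis enzyme, was gained only with both factors and lies on the minus strand at chr15:102205003-102205302.
Csad: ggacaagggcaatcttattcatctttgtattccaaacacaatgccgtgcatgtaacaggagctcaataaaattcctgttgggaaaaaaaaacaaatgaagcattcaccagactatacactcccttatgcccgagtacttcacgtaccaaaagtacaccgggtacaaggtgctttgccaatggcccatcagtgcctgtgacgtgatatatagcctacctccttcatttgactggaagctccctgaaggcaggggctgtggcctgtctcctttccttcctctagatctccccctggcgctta
The windows of Nhsl1 (plus strand, chr10:18469731-18470030) and of Steap4, a metalloreductase (plus strand, chr5:7960222-7960521), were lost with the SPOP mutation alone.
Nhsl1: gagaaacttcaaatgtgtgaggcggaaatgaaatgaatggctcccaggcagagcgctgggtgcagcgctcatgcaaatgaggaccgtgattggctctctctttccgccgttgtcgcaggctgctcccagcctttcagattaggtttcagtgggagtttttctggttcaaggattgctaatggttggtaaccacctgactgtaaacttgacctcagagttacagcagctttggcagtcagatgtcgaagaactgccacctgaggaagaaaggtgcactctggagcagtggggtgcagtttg
Steap4: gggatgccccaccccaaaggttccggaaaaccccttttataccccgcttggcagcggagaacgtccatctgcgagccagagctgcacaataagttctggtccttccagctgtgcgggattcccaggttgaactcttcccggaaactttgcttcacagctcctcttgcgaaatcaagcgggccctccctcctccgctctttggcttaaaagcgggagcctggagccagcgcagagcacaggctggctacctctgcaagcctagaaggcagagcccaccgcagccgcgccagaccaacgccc
The window of Il6, an inflammatory cytokine, was lost only with both factors and lies on the plus strand at chr5:30012864-30013163.
Il6: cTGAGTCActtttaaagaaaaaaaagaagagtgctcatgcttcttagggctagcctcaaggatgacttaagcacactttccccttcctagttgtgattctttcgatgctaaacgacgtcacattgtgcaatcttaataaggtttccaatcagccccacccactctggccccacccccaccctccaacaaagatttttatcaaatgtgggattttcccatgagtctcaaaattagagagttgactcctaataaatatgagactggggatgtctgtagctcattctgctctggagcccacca
In the window of Il6 the AP-1 letters stood near the upstream end, within the 160 of its 300 bases that the lost region covered. The other 5 printed windows held none of the 3 motifs, and neither did the chosen windows that are not printed here. Among the latter was the window of Tmem154, over the strongest promoter region lost only with both. Of all 21263 promoter windows, 16.2% held the hexamer, 4.66% the AP-1 site and 3.01% the forkhead site. Among the 11154 windows over any tested region these shares were lower, at 11.4%, 4.16% and 2.51%, and differences from them were not tested. Of the 101 windows over a gained region, 15.8% held the hexamer, 4.95% the AP-1 site and 3.96% the forkhead site. Of the 192 windows over a lost region, 16.1% held the hexamer, 7.29% the AP-1 site and 2.6% the forkhead site. These are descriptions of letters in a window and not of binding.

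More regions were gained than lost with SPOP mutation and DHT together. Of the 75438 regions, 6903 (9.15%) were gained and 5081 (6.74%) were lost, and 42395 (56.2%) were called in all 8 libraries. A separation of 4 against 4 libraries has the smallest exact two-sided p of 0.0286, and 0.18 was the smallest value after Benjamini-Hochberg adjustment over all regions, so single regions are a description and none passed correction. Just outside the rule, a separation of at least 3 of 4 against at most 1 of 4 libraries took in 10493 gained and 8742 lost regions. With regions merged from all 16 lists, 6799 were gained and 5036 lost with both factors, 3889 gained and 3501 lost in SPOPmut_EtOH, and 2352 gained and 1573 lost in Control_DHT, each against the same 4 Control_EtOH libraries. Because these 3 comparisons share their control, their counts are set side by side only.

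Regions gained or lost were mostly distal and narrow. The median width was 539 bp for gained and 483 bp for lost regions, against 654 bp for all tested regions and 946 bp for those called in all 8 libraries. Promoter windows covered 1.29% of gained and 3.31% of lost regions, against 11.8% of all tested regions and 19.2% of those called in all 8 libraries. In all 257 separated regions overlapped a promoter window, 89 gained and 168 lost. A total of 49.7% of gained and 42.6% of lost regions lay in a gene body outside promoter windows, against 44% of all tested regions, and 12.1% of gained and 16.1% of lost regions lay over 100 kb from any protein-coding gene, against 8.7% of all.

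SPOPmut_EtOH and Control_DHT libraries were not used to choose these regions, so the comparison of these groups with each other does not rest on the choice, whereas what either shows against Control_EtOH does. Of the 6903 gained regions, 3158, 2822, 3323 and 2924 were called in SPOPmut_EtOH libraries and 2197, 2023, 2582 and 2258 in Control_DHT libraries. Every SPOPmut_EtOH library was above every Control_DHT library, with a difference of 791.75 regions (exact permutation test, two-sided, p = 0.0286, the smallest that 70 arrangements allow). Of the 5081 lost regions, 1508, 1124, 1679 and 1125 were still called in SPOPmut_EtOH libraries, against 3335, 2983, 3589 and 3429 in Control_DHT libraries. Here too the libraries did not overlap, and the difference was -1975 regions (exact permutation test, two-sided, p = 0.0286). The difference at gained regions missed the threshold under 3 settings: 371.75 regions (exact permutation p = 0.0857) when a peak summit had to lie within 100 bp of the region's highest summit, 703 (exact p = 0.0571) without SPOPmut_EtOH replicate 3, and 408.25 (exact p = 0.0571) outside chromosomes 2, 13, 14 and 15.

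**Figure D1:**
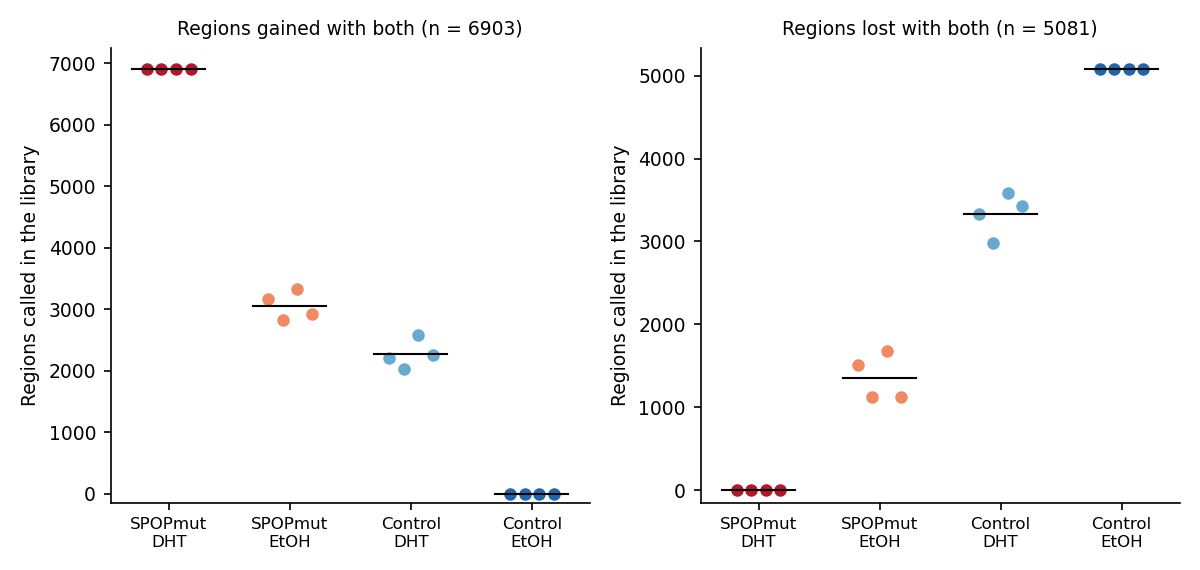
Number of gained regions (left) and lost regions (right) called in each library, with points for the 4 libraries of a group and lines for their mean. SPOPmut_DHT and Control_EtOH are fixed by the choice of the regions; the other groups were not used, and SPOPmut_EtOH held 2822 to 3323 gained regions while Control_DHT held 2023 to 2582.

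Gained regions divided into those shared with the mutation, those shared with DHT and those seen with neither alone. A region was taken as present in a single-factor group when 3 or 4 of its 4 libraries called it, and as absent at 0 or 1. On that basis 2369 gained regions (34.3%) were open with the SPOP mutation alone, 1549 (22.4%) with DHT alone, 410 (5.94%) with either alone, 1900 (27.5%) only with both, and 675 (9.78%) were mixed. Of the 1900 regions open only with both, 1418 were called in no library of either single-factor group, and SPOPmut_EtOH libraries called 25 to 111 of the 1900 while Control_DHT libraries called 17 to 152.

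Lost regions followed the mutation more than DHT. With the SPOP mutation alone 2334 (45.9%) were also uncalled, with DHT alone 428 (8.42%), with either alone 924 (18.2%), only with both 584 (11.5%), and 811 (16%) were mixed. Among the 584 regions lost only with both, 468 to 577 were still called in SPOPmut_EtOH libraries and 529 to 568 in Control_DHT libraries. These class sizes depend on the rule for presence. With present set to 4 of 4 and absent to 0 of 4, the mixed class grew to 2188 gained and 2421 lost regions, and 281 regions were lost only with both.

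**Figure D2:**
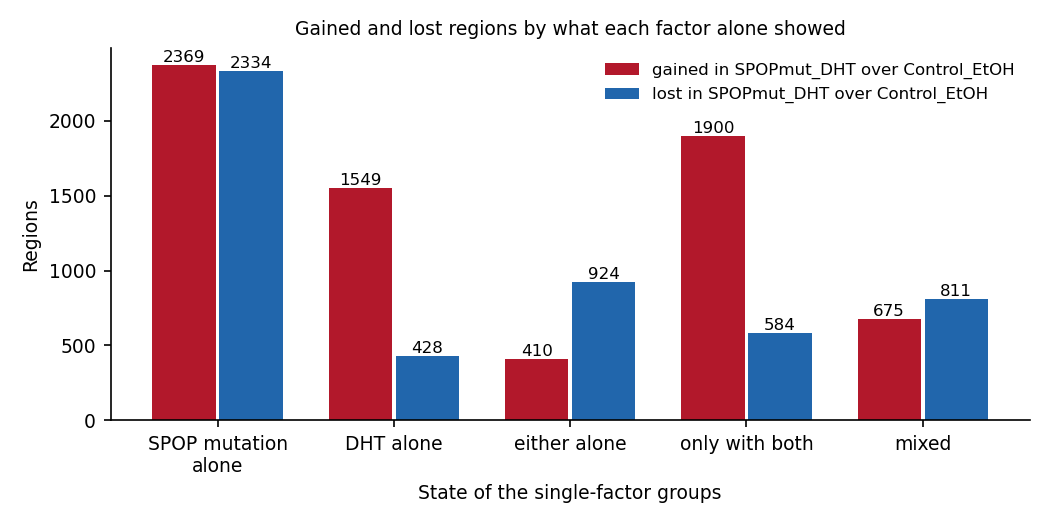
Number of regions gained (red) or lost (blue) in SPOPmut_DHT over Control_EtOH, by the state of SPOPmut_EtOH and Control_DHT at the same regions. The SPOP mutation alone accounts for the tallest bar in each direction (2369 and 2334), and only with both is the next tallest among gained regions (1900).

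**Figure D3:**
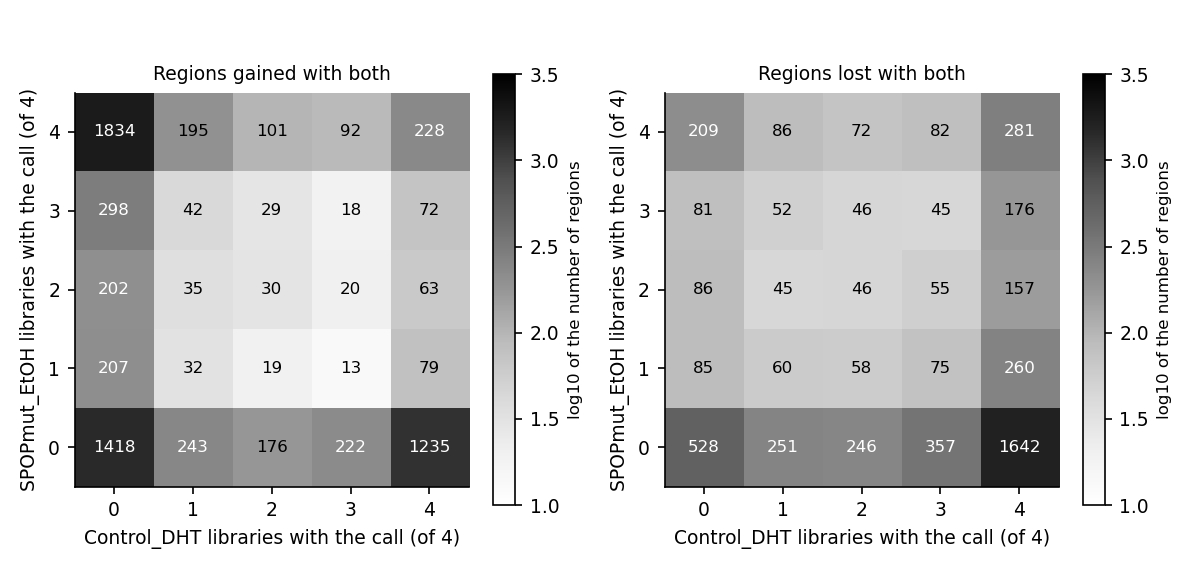
Number of gained (left) and lost (right) regions by how many of the 4 SPOPmut_EtOH libraries (y axis) and of the 4 Control_DHT libraries (x axis) called them, shaded on a log10 scale. Gained regions fill 3 corners (1834, 1418 and 1235 regions), whereas lost regions concentrate where all Control_DHT and no SPOPmut_EtOH library kept the call (1642).

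The strength of a region within its own list differed between classes. As the authors' -log10 p at a peak depends on depth, it was ranked within each list, and the median percentile over the libraries of the group that had the region was taken. Gained regions had a median percentile of 60.3 when either factor alone opened them and 42.6 for DHT alone. It was 28.6 for the SPOP mutation alone and 24.3 when only both opened them. Over all gained and lost regions together it was 30, and the other tested regions were given no such percentile. Lost regions ran the other way, with a median percentile of 44.4 for those lost only with both, 33.4 for the SPOP mutation alone, 23.1 for DHT alone and 17.2 for either alone. A weak region can cross the caller's threshold more easily than a strong one, and how far this sets the classes was not tested.

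The strongest regions of each class show the patterns. At chr17:27759646-27760899, in the body of Ilrun and open with DHT alone, the region stood at percentiles 97.4, 98, 98.1 and 98.7 in SPOPmut_DHT libraries and 89.6, 80.4, 88.9 and 84 in Control_DHT libraries, and had no peak in the 8 EtOH libraries. At chr17:44542408-44543607, in the body of Runx2, a transcription factor of bone and epithelia, it stood at 91, 90.5, 90.7 and 91.3 in SPOPmut_DHT libraries and 73.1, 75.6, 71 and 76.2 in SPOPmut_EtOH libraries, with no peak in controls. At chr2:150982287-150983485, in Ninl, percentiles were 97.4, 97, 98 and 98 in SPOPmut_DHT libraries, 25.1, 16.7, 41.9 and 25.9 in SPOPmut_EtOH libraries and 74.3, 59.6, 69.8 and 74.6 in Control_DHT libraries. These 3 regions were thus more highly ranked in the doubly exposed libraries than in any library with 1 factor, an order that their choice by rank in SPOPmut_DHT libraries favours.

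The region at chr19:55519900-55521014, in the body of Vti1a, appeared only with both, at percentiles 82.7, 72.5, 77.3 and 79.4 in SPOPmut_DHT libraries and with no peak in the other 12. Among lost regions, that at chr5:100828095-100829365 in Abraxas1 had no peak in SPOPmut_DHT libraries, while its percentiles were 19.4, 33.5, 19 and 13.9 in SPOPmut_EtOH libraries, 71.3, 73.4, 73.1 and 69.9 in Control_DHT libraries and 94.2, 93.5, 89.8 and 94.1 in Control_EtOH libraries. It was called lost only with both, but each single factor had a lower rank there than Control_EtOH. The window of Plac8 lay in a region at percentiles 90.1, 90.4, 91.8 and 94.1 in SPOPmut_DHT libraries and 89.5, 87.2, 91.9 and 85.5 in SPOPmut_EtOH libraries, against 1 peak at 0.0629 in a Control_DHT library and none in Control_EtOH.

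Per gene, the tested regions were assigned to the nearest protein-coding gene body within 100 kb (68874 regions, 91.3%), and called regions were counted per library. With limma over all 16 libraries, 1669 of 4664 genes with at least 5 regions rose (35.8%) and 1002 fell (21.5%) in SPOPmut_DHT over Control_EtOH at a Benjamini-Hochberg adjusted p under 0.05. The median change over all genes tested was 0.25 called regions. Of the genes that rose, 762 also passed in the same direction with the SPOP mutation alone and not with DHT alone, 179 with DHT alone and not with the mutation, 153 with each, and 575 with neither. Of those that fell, the counts were 420, 129, 237 and 216 in that order. The single-factor calls use the same Control_EtOH libraries, so these counts describe the split and are not separate evidence. The tested regions came from SPOPmut_DHT and Control_EtOH lists only, so regions called only in a single-factor group were left out. Single-factor changes per gene can thus be understated here and below, outside the test of additivity, and genes passing with neither overcounted. At Bnc1 the change with the mutation alone was 1.25 on these regions and 4.25 with regions merged from all 16 lists. At Iqca it was 0 and 3, while at Mmp7 it was -2 on both. Groups that did not overlap between SPOPmut_DHT and Control_EtOH were found at 1178 genes that were higher and 628 that were lower.

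Fkbp5, Zbtb16 and Tsc22d3, genes known to be induced by steroid hormones, rose with both factors and also with DHT alone. Fkbp5, a co-chaperone of steroid receptors, had 19, 16, 18 and 18 called regions in SPOPmut_DHT libraries, 8, 8, 8 and 9 in SPOPmut_EtOH, 13, 14, 15 and 13 in Control_DHT, and 7, 6, 7 and 8 in Control_EtOH libraries. SPOPmut_DHT libraries were above every other library, and the joint change was 10.75 ± 0.62 regions (SE, limma adjusted p = 1.73e-09), against 1.25 for the mutation alone and 6.75 for DHT alone. Of its 8 gained regions, 5 were open with DHT alone, 1 with the mutation alone and 2 only with both.

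Zbtb16, a zinc finger repressor induced by androgens and glucocorticoids, had 11, 9, 14 and 14 called regions in SPOPmut_DHT libraries, 1, 1, 1 and 2 in SPOPmut_EtOH, 10, 7, 8 and 8 in Control_DHT, and 2, 1, 3 and 3 in Control_EtOH libraries. Regions were thus called mainly where DHT was present, and the joint change was 9.75 ± 0.94 (SE, limma adjusted p = 4.11e-07). Tsc22d3, the steroid-induced leucine zipper gene, had 16, 15, 17 and 18 in SPOPmut_DHT, 10, 10, 11 and 10 in SPOPmut_EtOH, 15, 15, 18 and 17 in Control_DHT, and 11, 8, 10 and 9 in Control_EtOH libraries. Both DHT groups overlapped each other and lay above both EtOH groups at Tsc22d3, whose 6 gained regions were all open with DHT alone.

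Tmprss2, an androgen-regulated serine protease, passed with the mutation alone and not with DHT alone, a difference that was not itself tested. It had 27, 28, 31 and 32 called regions in SPOPmut_DHT, 27, 27, 27 and 26 in SPOPmut_EtOH, 24, 24, 23 and 23 in Control_DHT, and 22, 21, 23 and 22 in Control_EtOH libraries, and the joint change was 7.5 ± 0.93 (SE, limma adjusted p = 5.87e-06). Sgk1, a steroid-responsive kinase, had 21, 18, 21 and 21 in SPOPmut_DHT and 19, 18, 19 and 19 in Control_EtOH libraries, which did not pass (limma adjusted p = 0.107). Its joint change did pass within 25 kb (2 regions, limma adjusted p = 0.00396) and within the gene body and 10 kb (2.25, adjusted p = 0.000769). With DHT alone Sgk1 rose by 2.5 regions (limma adjusted p = 0.0283), with 20, 21, 23 and 21 in Control_DHT libraries. Pbsn, a secretory gene of the luminal prostate, had no tested region assigned to it.

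In the androgen response list 16 of 38 tested genes rose and 7 fell, beside 35.8% and 21.5% of all genes tested, and the median change was 0.875 regions beside 0.25. The genes that fell included Inpp4b, a phosphoinositide phosphatase, and Zmiz1, a coregulator. The list held 628 regions, and its libraries called 477 to 547 in SPOPmut_DHT, 441 to 471 in SPOPmut_EtOH, 462 to 501 in Control_DHT and 439 to 485 in Control_EtOH, so that SPOPmut_DHT overlapped both control groups and not SPOPmut_EtOH. Of its 77 gained regions 28 were open with DHT alone, 22 with the mutation alone, 3 with either, 21 only with both and 3 were mixed. Of its 43 lost regions 24 were lost with the mutation alone and 2 with DHT alone. Over all tested regions 9.15% were gained and 6.74% lost. Over all gained regions 22.4% were open with DHT alone, 34.3% with the mutation alone, 5.94% with either and 27.5% only with both. Over all lost regions 45.9% were lost with the mutation alone and 8.42% with DHT alone. Differences of the list from these shares were not tested.

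Of the 9 genes with the largest gains that passed and whose groups did not overlap, 6 of them tied at 11.5 regions, 8 also rose with the mutation alone, and Sox6 did not pass there. Mecom, a zinc finger transcription factor, had 30, 29, 31 and 30 called regions in SPOPmut_DHT, 25, 27, 27 and 26 in SPOPmut_EtOH, 10, 10, 13 and 13 in Control_DHT, and 12, 10, 10 and 10 in Control_EtOH libraries. Both mutant groups lay far above both control groups, and the joint change was 19.5 ± 0.82 regions (SE, limma adjusted p = 4.21e-11). Plcb1, a phospholipase C, had 18, 17, 19 and 18 in SPOPmut_DHT, 16, 16, 17 and 16 in SPOPmut_EtOH, 5, 4, 4 and 4 in Control_DHT, and 6, 4, 6 and 5 in Control_EtOH libraries. Of its 11 gained regions 9 were open with the mutation alone, and the region at its promoter was among them.

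Krt7, a keratin of simple and proximal duct epithelium, had 9 called regions in each SPOPmut_DHT library and 9, 8, 9 and 8 in SPOPmut_EtOH libraries, against 2, 1, 3 and 2 in Control_DHT and 1, 0, 1 and 0 in Control_EtOH libraries. Mutant and control libraries were fully apart at Krt7, with a joint change of 8.5 ± 0.39 (SE, limma adjusted p = 1.24e-10). Krt7 was below the 9 largest gains, which beside Mecom and Plcb1 were Macrod2, an ADP-ribose hydrolase gene, which rose by 13.75 regions, and Cep128, Lhfp, Mipol1, Pde4d, Sox6 and Stk3, which rose by 11.5 each. At Stk3, a kinase of the Hippo pathway, libraries had 19, 18, 19 and 20 called regions in SPOPmut_DHT, 14, 13, 14 and 12 in SPOPmut_EtOH, 7, 7, 8 and 7 in Control_DHT, and 9, 7, 7 and 7 in Control_EtOH, so that both mutant groups lay above the controls and did not overlap each other.

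All 8 genes with the largest losses that passed and whose groups did not overlap also fell with the mutation alone. Rerg, a Ras-like growth inhibitor, had 1 called region in each SPOPmut_DHT library and 0 in each SPOPmut_EtOH library, against 13, 14, 14 and 14 in Control_DHT and 14, 12, 14 and 13 in Control_EtOH libraries. Its 10 lost regions were all lost with the mutation alone, and the joint change was -12.25 ± 0.38 (SE, limma adjusted p = 1.38e-12). At Il15, a cytokine of lymphocyte survival, all 8 regions were called in every control library, with or without DHT, and in no SPOPmut_DHT or SPOPmut_EtOH library.

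Rarb, a retinoic acid receptor, had 13, 12, 13 and 15 called regions in SPOPmut_DHT, 14, 15, 14 and 14 in SPOPmut_EtOH, 19 to 20 in Control_DHT, and 27, 24, 27 and 27 in Control_EtOH libraries. Its change was -12 regions with the mutation alone, -6.5 with DHT alone and -13 ± 0.73 with both (SE, limma adjusted p = 1.16e-09). Slc39a11, a zinc transporter, fell by 14 regions, Atp10b, a lipid flippase, by 12.25, Lgr6, an R-spondin receptor, by 11.75, and Mast4, Nedd9 and Zbtb7c by 11.25 each. At Lgr6 the libraries had 6, 4, 6 and 7 in SPOPmut_DHT, 11, 7, 11 and 8 in SPOPmut_EtOH, 15, 12, 14 and 15 in Control_DHT, and 18, 15, 18 and 19 in Control_EtOH. Its test of additivity, described below, used regions merged from the lists of all groups and gave -1.5 regions (limma adjusted p = 0.59).

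**Figure D4:**
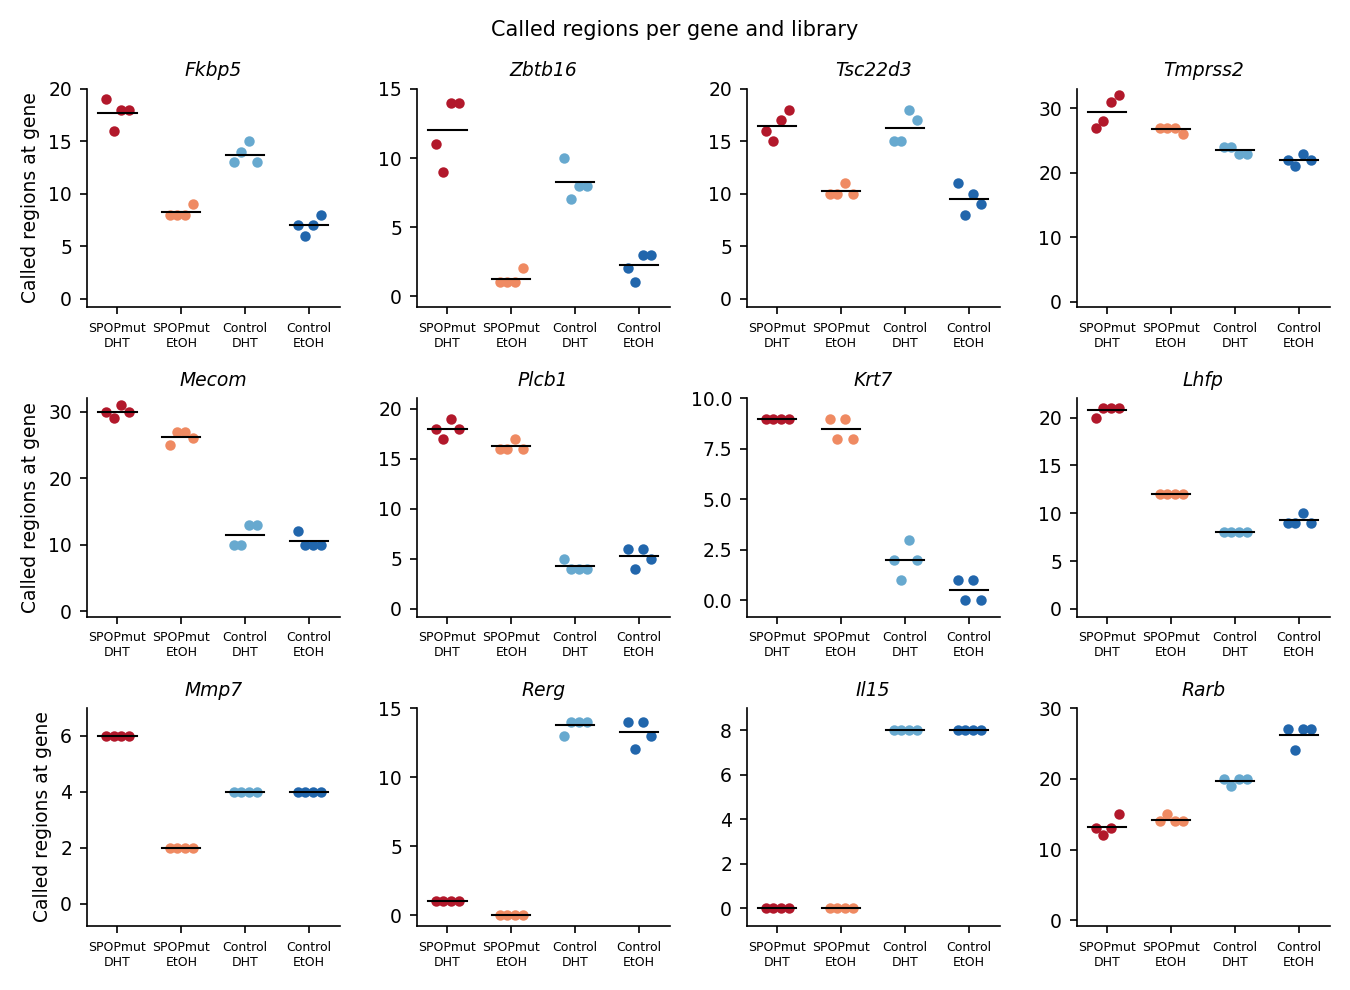
Called regions at 12 genes in each library, with points for libraries and lines for group means. Fkbp5, Zbtb16 and Tsc22d3 are high in the DHT groups, Mecom, Plcb1 and Krt7 in the SPOPmut groups, Lhfp and Mmp7 are highest in SPOPmut_DHT, and Rerg and Il15 are low in the SPOPmut groups.

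A gene's joint change was tested against the sum of both single changes with regions merged from all 16 lists. Of 5010 genes, 276 (5.51%) changed by more than the sum, in the upward sense, and 91 (1.82%) lay below the sum (limma, adjusted p under 0.05). After scaling each library to 10000 called regions these counts were 287 and 235, so the excess above the sum depends on the scaling. Without Control_EtOH replicate 2, 436 genes lay above the sum.

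Lhfp, a tetraspan membrane protein gene on chromosome 3, lay above the sum. It had 20, 21, 21 and 21 called regions in SPOPmut_DHT, 13, 13, 13 and 12 in SPOPmut_EtOH, 8 in each Control_DHT library, and 9, 9, 10 and 9 in Control_EtOH libraries. The change was -1.25 regions with DHT alone and 3.5 with the mutation alone, and the joint change of 11.5 exceeded their sum by 9.25 ± 0.57 (SE, limma adjusted p = 5.07e-08). Of the regions of the 8 lists, 8 at Lhfp were gained only with both, the most at any gene. At Mmp7, the matrix protease matrilysin, 6 regions were called in each SPOPmut_DHT library, 2 in each SPOPmut_EtOH library and 4 in each control library with or without DHT. The mutation thus had fewer calls without DHT and more with it, and the difference from the sum was 4 ± 0.24 (SE, limma adjusted p = 5.07e-08).

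Other genes lay above the sum while their joint change was a loss. At Trim52 no region was called in any mutant library, 1 in each Control_DHT library and 5 in each Control_EtOH library, a joint change of -5 beside -5 with the mutation alone and -4 with DHT alone. A count cannot go below 0, so the sum of both losses could not be reached and the excess of 4 at Trim52 is set by that floor. Cdh5, an endothelial cadherin, behaved alike, with 1, 0, 1 and 1 in SPOPmut_DHT, 1 in each SPOPmut_EtOH library, 3, 2, 3 and 3 in Control_DHT, and 6 in each Control_EtOH library, and the same floor applies to it. Below the sum, Bnc1, a zinc finger gene of stratified epithelium, had 10, 9, 10 and 11 called regions in SPOPmut_DHT and 15, 15, 16 and 16 in SPOPmut_EtOH, against 12, 11, 12 and 12 in Control_DHT and 10, 10, 12 and 13 in Control_EtOH. The gain seen with the mutation alone was absent when DHT was added, a difference of -6 ± 0.91 (SE, limma adjusted p = 0.000986). Iqca and Agr2, a secretory pathway isomerase, also lay below the sum, by -3.5 and -2.5 regions.

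Some genes were rich in a class of region. For gained regions open with DHT alone, Cdkal1 and Tsc22d3 had 6 each and Psd3 had 5. At Cdkal1 the libraries had 29, 29, 33 and 32 called regions in SPOPmut_DHT and 31, 30, 31 and 28 in Control_EtOH, and the total did not pass (limma adjusted p = 0.609), while SPOPmut_EtOH libraries had 23 to 26 and Control_DHT libraries 31 to 35. Pde4d, a cyclic AMP phosphodiesterase, had 7 gained regions open with the mutation alone and 4 only with both. Dlgap1, a synaptic scaffold gene, and Tmsb4x, encoding an actin-binding peptide, had 5 regions each that were gained only with both. Among genes with at least 1 gained region of either kind, 248 carried regions of both the mutation alone and DHT alone. This was 15.8% of the 1567 genes with mutation-alone regions and 22.1% of the 1124 genes with DHT-alone regions. In all 15453 genes had an assigned region, and a gene with many regions can more easily carry both kinds. Whether the overlap exceeds what this gives was not tested.

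Markers of prostate cell types changed in both directions. Counts of the lists stand beside 35.8% of all tested genes that rose and 21.5% that fell. Of the luminal list 6 of 11 tested genes rose and 1 fell. Ceacam1, a luminal adhesion molecule, had 5 called regions in each SPOPmut_DHT library, 3 in each SPOPmut_EtOH library, 3, 2, 3 and 3 in Control_DHT, and 1 in each Control_EtOH library, and its test of additivity gave 0.25 regions (limma adjusted p = 0.73). Foxa1, the pioneer factor, had 13, 12, 13 and 12 in SPOPmut_DHT and 11, 10, 10 and 11 in Control_EtOH libraries (limma adjusted p = 0.000309), although the change was 0 when regions were taken only within the gene body and 10 kb. Of the basal list 4 of 9 rose, with Itga6 at 3.5 regions, and 1 fell, Egfr at -3.75. Trp63, the basal master regulator, did not pass, with 22, 22, 22 and 21 in SPOPmut_DHT, 19, 18, 19 and 19 in SPOPmut_EtOH, 24, 22, 25 and 24 in Control_DHT, and 22, 20, 21 and 21 in Control_EtOH libraries (limma adjusted p = 0.338). Within 25 kb it was lower, at -1.25 (adjusted p = 0.0456).

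Krt5, with 4 regions, and Krt8, with 3, were under the minimum and were not tested. Krt8, the luminal keratin, had 3 called regions in every SPOPmut library, 1 in each Control_DHT library and 2, 1, 2 and 1 in Control_EtOH libraries, and Krt5, the basal keratin, had 3 or 4 in every library. Of the proximal luminal progenitor list 3 of 8 rose (Krt7, Ly6a and Sox9) and Atp10b fell. Of the secretory list 2 of 3 rose. Azgp1, a secreted glycoprotein, had 5, 4, 4 and 5 called regions in SPOPmut_DHT, 2, 1, 2 and 2 in SPOPmut_EtOH, 0, 0, 1 and 1 in Control_DHT, and 1, 0, 2 and 2 in Control_EtOH libraries, so that its calls were frequent only where both factors were present.

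Markers of cell types other than prostate epithelium also moved. Of the endothelial list 0 of 5 tested genes rose and 3 fell (Cdh5, Vwf and Erg), beside 35.8% and 21.5% of all genes, and the list's 64 regions were called 38 to 47 times in SPOPmut_DHT, 43 to 51 in SPOPmut_EtOH, 49 to 54 in Control_DHT and 54 to 57 in Control_EtOH libraries. Vwf lost its call in 6 of the 8 fits that left out a library. Of the stromal list, where 10 of 14 genes had a region, Twist2 rose (limma adjusted p = 0.00427, exact permutation p = 0.0571) and Zeb1, a repressor of epithelial genes, fell, with 1 called region in each SPOPmut_DHT library against 5, 4, 4 and 5 in Control_EtOH. The 30 regions of that list were called 15 to 21 times in SPOPmut_DHT, 18 to 21 in SPOPmut_EtOH, 19 to 22 in Control_DHT and 20 to 25 in Control_EtOH libraries. Scg2, a neuroendocrine granule protein, rose, with 6, 5, 6 and 6 in SPOPmut_DHT and 5, 5, 5 and 4 in SPOPmut_EtOH libraries, against 0 in every control library. The other tested neuroendocrine gene did not pass, and the 22 regions of the list were called 15 to 18 times in SPOPmut_DHT, 15 to 20 in SPOPmut_EtOH, 10 to 12 in Control_DHT and 13 to 15 in Control_EtOH libraries. Ptprc, the only tested immune gene, rose by 3.5 regions, and the 16 regions of the immune list (6 of 9 genes with a region) were called 11 to 14 times in SPOPmut_DHT, 9 to 11 in SPOPmut_EtOH, 6 to 8 in Control_DHT and 9 to 11 in Control_EtOH libraries. Pax8, the only tested gene of the seminal vesicle and urothelium list, fell by 1 (limma adjusted p = 0.0182, exact permutation p = 0.171), and the list's 22 regions were called 13 to 17 times in SPOPmut_DHT and 14 to 16 in Control_EtOH libraries. The part of such cells in the other changes was not tested.

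Lists of regulators did not move one way. Of SPOP, cullin 3 and reported substrate genes 4 of 11 rose and 3 fell, near the 35.8% and 21.5% of all genes. Ncoa3, a steroid receptor coactivator, had 8, 8, 7 and 8 called regions in SPOPmut_DHT, 7, 7, 8 and 8 in SPOPmut_EtOH, 4, 4, 5 and 5 in Control_DHT, and 5, 4, 4 and 4 in Control_EtOH libraries, and so followed the mutation. Ncoa3 lies on chromosome 2, where the share of called regions was higher in both mutant groups, as described below. Myc rose by 3.75 regions, and Trim24 did not pass (-0.25, limma adjusted p = 0.743). Of steroid receptor and partner genes 10 of 25 rose and 7 fell, also near the shares over all genes. Hoxb13, a prostate homeobox gene, had the same mean in both groups (adjusted p = 1).

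The remaining lists were small, and their counts stand beside the same 35.8% and 21.5%. Of AP-1 and immediate early genes 2 of 9 rose and Egr2 fell. Of interferon and inflammation genes 4 of 11 rose and 3 fell, among them Il15, described above, and Il33, an alarmin, which fell by 4.25 regions. Of Wnt, Notch and Hedgehog genes 6 of 18 rose, led by Lgr4, an R-spondin receptor, with 16 called regions in each SPOPmut_DHT library, 13 in each SPOPmut_EtOH library, 7 in each Control_DHT library and 8, 8, 9 and 8 in Control_EtOH libraries, and 5 fell. Of cell cycle genes 0 of 7 rose and 5 fell (Mki67, Ccnd2, Cdkn1a, Ccnd1 and Cdkn2a), beside 35.8% and 21.5% of all genes. Mki67, a proliferation marker, had 5, 5, 5 and 6 in SPOPmut_DHT and 7, 6, 8 and 8 in Control_EtOH libraries, which meet at 6 (exact permutation p = 0.0571). Of the housekeeping list 2 of 3 tested genes rose, Ywhaz and Actb, although Ywhaz had -1.25 regions (adjusted p = 0.000333) within the gene body and 10 kb. At Actb 9, 8, 9 and 9 regions were called in SPOPmut_DHT and 9 in each SPOPmut_EtOH library, against 6 in each library of both control groups, so the list is no stable reference here.

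The share of called regions per chromosome differed between SPOPmut_DHT and Control_EtOH libraries on 19 of 21 chromosomes, 10 higher and 9 lower. Each had the smallest possible p of the exact permutation test, 0.0286, which was 0.0316 after Benjamini-Hochberg adjustment. The shares of a library add up to its whole, so a higher share on some chromosomes lowers the others. The 19 are therefore not separate changes. Chromosome 2 took 8.4% of called regions in SPOPmut_DHT, 8.29% in SPOPmut_EtOH, 7.06% in Control_DHT and 7.04% in Control_EtOH libraries. The joint change of the share was 19.4% of its value on chromosome 2 and 16.8% on chromosome 15, and -16.4% on chromosome 14 and -11.8% on chromosome 13. In SPOPmut_EtOH these were 17.7%, 15.7%, -15.2% and -12.3%, and in Control_DHT 0.4%, 0.273%, -2.56% and -0.813%. On these 4 chromosomes the shares in both mutant groups thus lay close together and those in both control groups likewise. On chromosome X the change was 5.68% in SPOPmut_DHT, 0.236% in SPOPmut_EtOH and -1.67% in Control_DHT.

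Of the genes tested on chromosome 2, 60.2% rose and 8.52% fell, and on chromosome 15, 55.8% rose and 5.31% fell, whereas on chromosome 14 only 17% rose and 47.4% fell. Plcb1, Macrod2, Ncoa3, Lgr4 and Itga6 lie on chromosome 2, as does Pax8, which fell. Krt7, Krt8, Stk3, Myc and Ywhaz lie on chromosome 15, and Rarb and Trim52 on chromosome 14. Regions gained with the mutation alone ranged from 1.45% of tested regions on chromosome 13 to 6.34% on chromosome 2, while those gained with DHT alone ranged from 1.51% to 3.39% over the autosomes and X. Outside chromosomes 2, 13, 14 and 15, 5227 regions were gained and 4072 lost. There 32.4% of gained regions were open with the mutation alone, 24.1% with DHT alone and 27.9% only with both, close to the shares over all chromosomes, and 33.6% of genes rose while 22.1% fell. DNA copy number of the organoids was not analysed here, and its part in the chromosome shares, and in the gains and losses of genes on these chromosomes, was not tested.

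**Figure D5:**
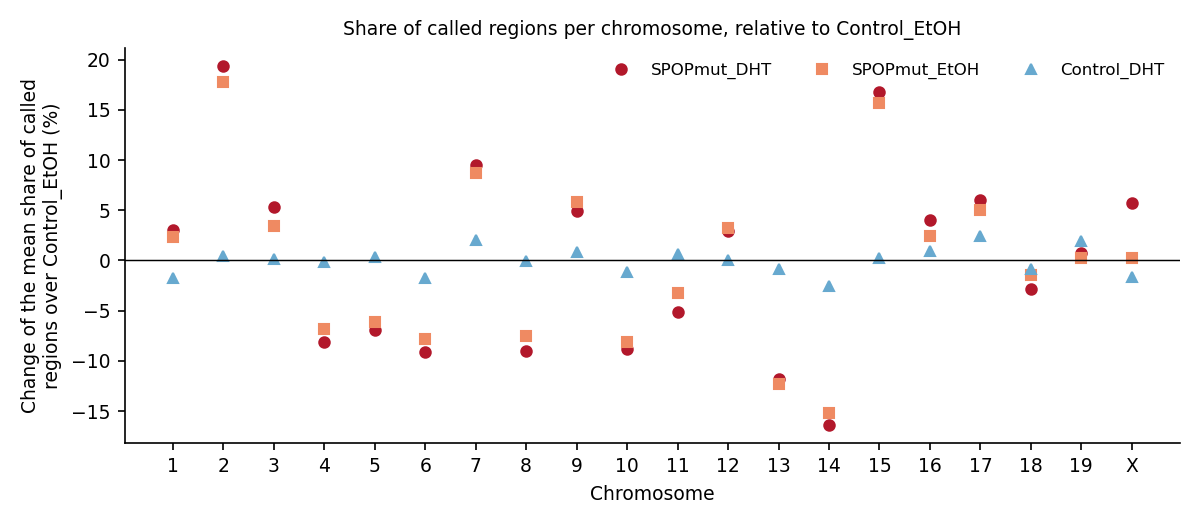
Change of the mean share of called regions on each chromosome over Control_EtOH, in percent of the Control_EtOH share, for SPOPmut_DHT, SPOPmut_EtOH and Control_DHT (means of 4 libraries, chromosome Y left out). SPOPmut_DHT runs from -16.4% on chromosome 14 to 19.4% on chromosome 2 with SPOPmut_EtOH close to it except on X, while Control_DHT stays between -2.56% and 2.48%.

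Gained and lost regions also stood next to each other. Runs of at least 3 neighbouring tested regions with the same direction numbered 218 for gained (770 regions, 11.2%) and 159 for lost regions (608 regions, 12%). The longest gained run held 10 regions at chr4:121750463-122496206, where 4 were open with the mutation alone and 6 only with both, with no assigned gene. At chr15:101395806-101426049 a run of 7 covered Krt7. The longest lost run held 14 regions at chr10:84000338-84122651, 12 of them lost with the mutation alone, also without an assigned gene. A run of 11 lost regions at chr8:82243524-82744811 spanned Il15 and Zfp330, and all 11 were lost with the mutation alone. A run of 9 at Pcdh19, an X-linked protocadherin, held 5 lost with the mutation alone and 3 with either factor.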

How the data were processed

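ATAC-seq peak lists of 16 libraries, 4 per group, were analysed. Per the submitters' processing notes the tools were Bowtie2 2.3.4.1, SAMtools 1.8 and Genrich (version not stated), with the genome build mm10. Each list holds the peaks of 1 library. The deposited score, signal and −log10 p of each peak are the authors' values from the peak caller; the score and signal were not used for any result, and the −log10 p ranked or filtered peaks inside each list. Column 10 gives the deposited summit position. No counts were given, so depth is unknown and no counting intervals were computed.

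Groups came from the sample labels. Regions, genes and the 17 gene lists (324 of 325 entries matched to RefSeq, GRCm38.p6) were chosen with earlier results of these data known. Region calls were compared by exact permutation tests over libraries (two-sided, 70 arrangements). Called regions per gene (nearest protein-coding gene body within 100 kb, at least 5 regions, shortest gene on ties) were fitted with limma 3.58.1 in R 4.3.3 (4 group means over 16 libraries, eBayes with trend and robust, Benjamini-Hochberg adjustment over all genes), after a check on simulated data. The test assumes a roughly continuous spread, while these values are small whole numbers with few distinct levels. The genes named are the 8 per direction with the largest joint change, 3 per class of region, 3 per direction in the test of additivity, 2 per list, and a fixed set of steroid and lineage genes; a few genes that this rule takes are not reported here. Alternatives changed the threshold, list length, overlap, merging, separation rule, gene assignment, filter, scaling, test and libraries; 1, which left out 4 chromosomes, was chosen after seeing the data. Software was Python 3.11.15, NumPy 2.4.6, pandas 2.3.3, SciPy 1.17.1 and Matplotlib 3.10.9. Signal tracks, exons and motifs outside promoter windows were not analysed here.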

Additional observations from a re-analysis of the deposited data

Results flagged for a closer look

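Among 212 sets of 4 values, 30 had 1 library apart from the other 3, where chance gives about 1 in 20. Most of these were whole numbers in which 3 libraries shared a value and the fourth was a region or a few away, so they carry little. In SPOPmut_DHT the share of chromosome 3 was 5.50% in 1 library and that of chromosome 16 was 3.60%. Also in SPOPmut_DHT, 1 library stood apart at Actb (8 called regions), Atp10b (3), Bnc1 (9), Cdh5 (0), Iqca (5), Itga6 (16), Lhfp (20), Mki67 (6), Ncoa3 (7), Scg2 (5), Sgk1 (18) and Trp63 (21). In Control_EtOH, 1 library stood apart at Cd24a (2), Egfr (24), Foxo3 (11), Hoxb13 (4), Krt5 (3), Lgr4 (9), Lhfp (10), Mecom (12), Mipol1 (10), Ncoa3 (5), Nup210 (6), Rarb (24), Sgk1 (18), Stk3 (9), Twist2 (7) and Vwf (15).

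The change with DHT differed between SPOPmut and Control at 20 of the genes named (limma interaction, adjusted p under 0.05), given as the change in SPOPmut minus the change in Control. Several of them were named for this test or for regions gained only with both, which favours the count; over all genes 5.51% lay above and 1.82% below. At Trim52 both SPOPmut groups were at 0 and could not fall further. It was 9.25 regions at Lhfp, 6.75 at Sox6, 6.25 at Dlgap1 and at Mipol1, 5 at Stk3, 4.75 at Zbtb16, 4 at Mmp7 and at Trim52, 3.5 at Tmsb4x, 3.25 at Ptprc, 3 at Azgp1, Cdh5 and Trim24, 2.25 at Foxo3 and 1.75 at Egr2. It was -6 at Bnc1, -4.75 at Trp63, -3.5 at Iqca, -2.5 at Agr2 and -1 at Il15. All these values use regions merged from the lists of all groups. Counts per library printed earlier for genes such as Trp63 and Il15 use regions from SPOPmut_DHT and Control_EtOH lists only. Those counts therefore do not give the values listed here.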

How the results depend on the processing

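Of the values of the comparisons recomputed, 344 kept their direction and call or stayed within 1.5 times, 45 moved further and 3 lost their call, the 3 given with the gained regions (371.75, 703 and 408.25). With separation at 3 of 4 against 1 of 4, 10493 regions were gained and 8742 lost. The split then gave 3745 gained with the mutation alone, 705 with either, 2874 only with both and 1241 mixed, and 877 lost with DHT alone, 1991 with either, 1098 only with both and 1621 mixed. With present at 4 of 4 and absent at 0 of 4, the gained regions held 228 for either and 2188 mixed, and the lost ones 209 for DHT alone, 528 for either, 281 only with both and 2421 mixed. Genes with at least 2 regions gave 2856 that rose and 1945 that fell, with 501 above and 189 below the sum; at least 10 regions gave 659 and 388, with 89 and 17. Genes that fell numbered 624 for the gene body and 10 kb and 628 by exact permutation. Genes below the sum were 235 per 10000 called regions.

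Leaving out 1 library gave 350 to 848 mixed gained and 389 to 1113 mixed lost regions, 924 to 1688 lost with either (1688 without Control_EtOH replicate 2), 194 to 436 genes above the sum, and differences of 703 to 1061.75 at gained regions. Direction changed at Trp63 within 25 kb (-1.25), Ywhaz in the gene body and 10 kb (-1.25), Adgrv1 (5.5) and Iqca (-1.5) without the weakest 25% of peaks, and Spop at equal list length (-0.25); the cause was not tested. Of 80 results on named genes, 63 kept direction and call throughout.

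Deviations from the group mean were correlated between SPOPmut_DHT and Control_EtOH libraries of the same number. On called regions per gene the values were 0.373 for number 2 and 0.17 for number 3, each best with its own number. They were -0.109 for number 1 and 0.0943 for number 4, neither best with its own. On single region calls they were -0.00325, 0.0514, -0.00167 and 0.0145 for numbers 1 to 4, so the numbers were not taken as pairs. With the replicate block 1745 genes rose and 1077 fell, and 332 lay above and 109 below the sum.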
